A study of Rattus norvegicus with 6 samples.

Results

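The small leucine-rich proteoglycans are secreted core proteins built of leucine-rich repeats, most of which carry glycosaminoglycan chains. The set followed here was fixed by gene name and held 10 genes: Dcn, Bgn, Lum, Fmod, Ogn, Aspn, Kera, Prelp, Omd and Podn. Of these, 9 had a row under that name among the 33300 genes of the deposited table, and Podn (podocan) was not analysed here. Aspn and Ogn each had 2 rows, and the row with the higher mean was used for each unless stated. RNA sequencing had been carried out on rat tendon stem/progenitor cells, the resident precursors of tendon fibroblasts, after 7 days of culture. In the NAC group (3 libraries) the cells were kept in F12, a culture medium, with 500 uM N-acetyl-L-cysteine, a thiol antioxidant that serves cells as a source of cysteine. The Control group (3 libraries) had F12 alone. All 6 samples carried the same labels for tissue (tendon), cell line (mesenchymal stem cells) and tenogenic differentiation, and the labels do not tell whether a group's libraries stem from different cultures or animals. The p-values therefore weigh the spread among these 6 libraries, which may be technical.

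Proteoglycans of this family bind the surface of collagen fibrils and limit their lateral growth, and several also bind growth factors and cell surface receptors. Decorin and biglycan, of class I, carry chondroitin or dermatan sulfate, and asporin of the same class as a rule carries none. Fibromodulin, lumican, PRELP, keratocan and osteomodulin form class II, of which several carry keratan sulfate, and osteoglycin belongs to class III. Decorin is the most abundant proteoglycan of tendon, and biglycan with fibromodulin has been described as part of the niche of tendon progenitor cells in mice.

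The libraries held 12487215 to 14941949 reads, and the pan-leukocyte gene Ptprc and the endothelial gene Cdh5 stood at 0 in all 6. FPKM is the number of fragments scaled by gene length and by a divisor for each library. Thy1 and Pdgfrb, which mark mesenchymal progenitors, averaged 1009 and 134.8 FPKM in NAC cells, against 916 and 132 FPKM in Control cells. Of the same list, Nt5e and Eng averaged 89.6 and 36.2 FPKM in NAC cells, against 77.2 and 32.6 FPKM in Control cells. Pdgfra went the other way, at 220 FPKM in NAC cells and 233 FPKM in Control cells. Cd44 averaged 111.7 FPKM in NAC cells and 111.9 FPKM in Control cells. None of these 6 markers was called. Of 8 tendon markers, 3 were called higher (Col1a1, Col3a1 and Tnc) and none lower by limma, beside 6.08% and 2.72% of all tested genes. The list summed to 8663 to 8995 FPKM in NAC cells and 4943 to 5381 FPKM in Control cells. The largest part of it was Col1a1, at 5453 FPKM in NAC cells and 2731 FPKM in Control cells. The tendon factor Scx averaged 11.6 FPKM in NAC cells and 12.5 FPKM in Control cells, and the late tendon marker Tnmd 2.55 FPKM in NAC cells and 1.41 FPKM in Control cells, neither called. Mkx averaged 3.90 FPKM in NAC cells and 5.28 FPKM in Control cells, Thbs4 797 and 584 FPKM, and Egr1 82.8 and 67.9 FPKM, none called. With library totals Mkx was called lower (limma adjusted p = 0.0481), as were 29.2% of all genes. Summed over lists of markers of other cell types, levels were 0.511 to 0.518 FPKM in NAC cells and 0.283 to 0.67 FPKM in Control cells for the endothelial list (5 of its 6 genes had a row, 2 at 0 throughout), and 3.78 to 5.29 FPKM in NAC cells against 4.25 to 7.31 FPKM in Control cells for the 6 leukocyte genes. Of 5 pericyte and smooth muscle genes, which summed to 37.8 to 40.1 FPKM in NAC cells and 39.5 to 43.6 FPKM in Control cells, Myh11 was called lower, at 17.2 ± 1.4 FPKM in NAC cells and 21.9 ± 0.486 FPKM in Control cells (SD, n = 3; limma adjusted p = 0.0269), and its part in the results was not tested. The adipocyte list summed to 1119 to 1213 FPKM in NAC cells and 880 to 1151 FPKM in Control cells, nearly all of it Lpl. The Schwann cell list summed to 47.8 to 53.2 FPKM in NAC cells and 47.1 to 55.1 FPKM in Control cells, mostly S100b. Chondrocyte, osteoblast and skeletal muscle lists lay between 7.28 and 13.9 FPKM in NAC cells and between 6.64 and 15.5 FPKM in Control cells. Limma called no gene of the adipocyte, Schwann cell, chondrocyte, osteoblast and skeletal muscle lists. On the second principal component, with 20.5% of the variance, Control 2 lay at -21.8 and the other 5 libraries between -4.23 and 10.3.

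The genes with a row lie in 3 neighbourhoods, apart from Bgn. In the authors' deposited coordinates, of a build not named in the sources, Dcn (chromosome 7, 38742051 to 38782323), Lum (38819771 to 38826862) and Kera (38858062 to 38865515) follow each other on the plus strand, with gaps of 37.4 kb and 31.2 kb and no other listed gene between them. Prelp (chromosome 13, 50749514 to 50761355) and Fmod (50873605 to 50885563) lie 112 kb apart on opposite strands. Ogn (14607442 to 14627937), Omd (14635184 to 14637832) and Aspn (14656009 to 14679409) follow each other on chromosome 17, and Bgn lies on chromosome X (157319046 to 157331204). None of the 9 rows overlapped another listed gene, so no antisense partner in the table shares their span.

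Promoter windows are shown for 3 class II genes that differed in level or in their change with NAC: Lum, which rose with NAC, Fmod, which is expressed and was not called, and Kera, the neighbour of Lum, which is close to the limit of detection. Each window runs from 250 bases before to 50 bases after the start of the gene in RefSeq, build GRCr8, on the plus strand, at chr7:34245456-34245755 for Lum, chr13:48045317-48045616 for Fmod and chr7:34283850-34284149 for Kera. Capitals mark matches on either strand to short promoter elements. The TATA box, which helps to place the start of transcription, was searched as TATAAA. The CCAAT box, a common element upstream of the start, was searched under its own letters, and the GC box, which is bound by Sp family factors, as GGGCGG. The E-box, which is read by factors of the helix-loop-helix type such as scleraxis, was searched as CANNTG, and the element of the AP-1 family of factors as TGANTCA.
Lum: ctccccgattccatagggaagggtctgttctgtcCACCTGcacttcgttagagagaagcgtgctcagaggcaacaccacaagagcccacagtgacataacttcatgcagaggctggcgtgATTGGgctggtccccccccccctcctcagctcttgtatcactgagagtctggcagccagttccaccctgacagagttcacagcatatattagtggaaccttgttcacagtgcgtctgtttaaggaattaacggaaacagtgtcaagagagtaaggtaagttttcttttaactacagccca
Fmod: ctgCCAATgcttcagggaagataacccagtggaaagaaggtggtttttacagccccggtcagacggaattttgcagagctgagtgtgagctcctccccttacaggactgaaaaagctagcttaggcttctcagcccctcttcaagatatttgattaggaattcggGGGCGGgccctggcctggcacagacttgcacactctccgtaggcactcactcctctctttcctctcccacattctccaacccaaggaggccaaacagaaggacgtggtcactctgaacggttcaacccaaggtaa
Kera: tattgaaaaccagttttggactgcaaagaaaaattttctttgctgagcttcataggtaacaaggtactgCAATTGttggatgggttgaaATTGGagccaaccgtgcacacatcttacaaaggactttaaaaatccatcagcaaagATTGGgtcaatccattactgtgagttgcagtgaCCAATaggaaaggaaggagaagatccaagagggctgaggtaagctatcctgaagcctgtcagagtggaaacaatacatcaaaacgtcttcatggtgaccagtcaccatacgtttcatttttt

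The Lum window held 1 CCAAT match and 1 CANNTG match, the Fmod window 1 CCAAT match and 1 GGGCGG match, and the Kera window 3 CCAAT matches and 1 CANNTG match. Across 33469 rat promoter windows of the same length, CCAAT was found in 37.5%, CANNTG in 72.1%, GGGCGG in 33.1%, TATAAA in 14.2% and TGANTCA in 7.33%. Neither TATAAA nor TGANTCA occurred in any of the 3 windows. The content of G and C was 50.7% for Lum, 52.7% for Fmod and 40.7% for Kera, against a mean of 52.7% over all windows. RefSeq windows were matched for 7 of the 10 genes.

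Setting NAC beside Control shows which RNAs changed with the antioxidant. With NAC, 4 of the 10 proteoglycan genes rose, Lum, Bgn, Prelp and Dcn, and none was called lower by limma, a linear model fitted across all genes (adjusted p under 0.05). Lum, which encodes a keratan sulfate proteoglycan of collagen fibrils, was 1.93-fold higher in NAC cells by mean FPKM, Bgn 1.46-fold, Prelp 1.30-fold and Dcn 1.25-fold. Of the remaining genes, Fmod, Ogn and Aspn were tested and not called, Kera and Omd lay below the mean of 1 FPKM required for the test, and Podn was not analysed here. Over all 12733 genes tested, 6.08% were called higher and 2.72% lower. At an unadjusted p under 0.05, limma gave 5 members higher and 1 lower, against 14.4% of all tested genes higher and 11.9% lower at that threshold. Limma voom on the recovered reads called 4 higher and 0 lower, where 8.13% of all genes were called higher and 4.15% lower. It took the divisor inside FPKM as library size, so it changed the test and kept the authors' scaling. The 4 genes were also called with a block for the replicate number, where 3.66% of all genes were called higher and 0.864% lower. In bulk RNA, a change in the number of cells that express a gene and a change in RNA per cell cannot be told apart.

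**Figure D1:**
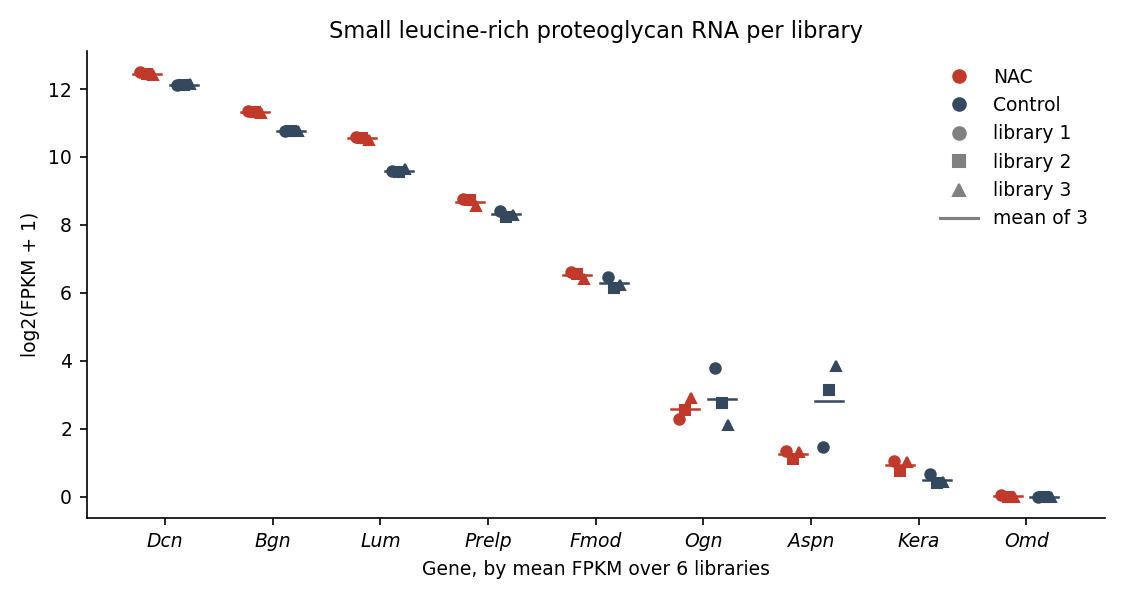
Level of each of the 9 proteoglycan genes with a row, as log2(FPKM + 1), in the 3 NAC libraries (left, red) and the 3 Control libraries (right, dark), with a line at the mean of each group. The NAC points lie above all Control points for Dcn, Bgn, Lum, Prelp and Kera, and the Control points of Aspn and Ogn are widely spread.

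Levels of the members spanned from among the highest of the transcriptome to nothing detectable. Dcn stood at rank 4 of all genes by mean FPKM in both NAC and Control cells, Bgn at rank 17 in NAC and 19 in Control cells, and Lum at rank 27 in NAC and 49 in Control cells. Prelp followed at rank 168 in NAC and 197 in Control cells, and Fmod at rank 781 in NAC and 910 in Control cells. From Dcn down to Fmod the ranges of neighbouring genes in this order did not overlap within either group. Ogn and Aspn overlapped each other in Control cells, at 3.29 to 12.8 FPKM and 1.76 to 13.5 FPKM, and did not in NAC cells, at 3.86 to 6.53 FPKM and 1.16 to 1.54 FPKM. Together the 9 genes held 1.97 ± 0.0474% of the reads in NAC cells and 1.61 ± 0.0313% in Control cells (SD, n = 3).

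Among the class I genes, Dcn, which encodes decorin, read 5805, 5565 and 5492 FPKM in the NAC libraries, against 4436, 4486 and 4545 FPKM in the Control libraries. Every NAC library exceeded every Control library, and between 106331 and 146816 reads stood behind each value. For Dcn the log2 fold change was 0.32 ± 0.0403 (SE; limma adjusted p = 0.00649), and it stayed between 0.30 and 0.34, called each time, on leaving out single libraries. Bgn, which encodes biglycan, read 2606, 2567 and 2488 FPKM in the NAC libraries, against 1738, 1749 and 1743 FPKM in the Control libraries. The Control libraries thus differed from each other by far less than from any NAC library, with a coefficient of variation of 0.332% in Control cells beside 2.36% in NAC cells. For Bgn the log2 fold change was 0.55 ± 0.0356 (SE; limma adjusted p = 0.000561), called with each library left out in turn (0.54 to 0.57). The calls of Dcn and Bgn both ended with quantile normalization (0.048 and 0.031), which gives genes of like rank like values in all libraries and called 4.47% of all genes higher and 3.2% lower, and that of Dcn also without a filter on low values (adjusted p = 0.156).

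Among the class II genes that were tested, Lum had the highest fold change. It read 1526, 1508 and 1453 FPKM in the NAC libraries, against 771, 753 and 798 FPKM in the Control libraries. The lowest NAC library stood far above the highest Control library, and each value rested on 19328 to 41764 reads. For Lum the log2 fold change was 0.95 ± 0.0391 (SE; 95% interval 0.86 to 1.04; limma adjusted p = 0.000234), and it was called in all 17 alternatives run, with values from 0.70 to 0.97.

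Prelp, whose product links basement membranes to connective tissue, read 436, 422 and 373 FPKM in the NAC libraries, against 340, 298 and 310.1 FPKM in the Control libraries. The groups did not overlap, although NAC 3 lay closer to Control 1 than to the other NAC libraries. Its log2 fold change was 0.37 ± 0.0737 (SE; limma adjusted p = 0.0293). This call was lost without NAC 1, NAC 2, Control 2 or Control 3 (0.33 to 0.36; without Control 2, 6.75% of all genes were called higher and 2.73% lower), and also with library totals, quantile normalization, no trend or no filter. Its adjusted p was 0.0543 to 0.187 in these 8 settings and 0.00563 to 0.0435 in the 9 others.

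Fmod, which encodes fibromodulin, a regulator of collagen fibril assembly, read 97.4, 93.3 and 83.1 FPKM in the NAC libraries, against 87.3, 69.6 and 73.6 FPKM in the Control libraries. The groups overlapped, with Control 1 above NAC 3. The difference of 0.25 (log2, 95% interval 0.020 to 0.48; limma adjusted p = 0.160) did not pass, nor did it in any alternative. The interval holds the change measured for Dcn, so that the data do not separate Fmod from a rise of that size.

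Kera, which encodes keratocan, a proteoglycan best known from the cornea, read 1.08, 0.672 and 1.01 FPKM in the NAC libraries, against 0.589, 0.319 and 0.346 FPKM in the Control libraries. The NAC values rested on 29, 18 and 25 reads and the Control values on 16, 8 and 10 reads, all above the floor of 3 reads and with no overlap between the groups. With no filter on low values the log2 difference of Kera was 0.44 (limma adjusted p = 0.126). Between Lum and Kera, neighbours on chromosome 7, the mean FPKM differed 1625-fold in NAC cells and 1853-fold in Control cells. Omd, which encodes osteomodulin, had 1 read in NAC 1 and 0 in the other 5 libraries, below the floor, so that no fold is given. A second row described as osteomodulin-like, on another part of chromosome 17, had 3, 1 and 3 reads in the NAC libraries and 3, 2 and 4 reads in the Control libraries.

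Taking the rows as deposited, all NAC libraries lay above all Control libraries in 5 of the 10 genes (Dcn, Bgn, Lum, Prelp and Kera) and below them in 1 (Aspn). Such separation was found in 16.7% of all tested genes with NAC above and in 15.9% with NAC below; Kera is counted here although it was not tested.

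Library totals and quantile normalization moved the members differently. The authors' divisor inside FPKM was 0.916 ± 0.00812 times the recovered reads in NAC cells and 1.03 ± 0.0122 times in Control cells (SD, n = 3). In NAC cells it thus lay below the recovered reads, so it is not a plain library total. The deposited values therefore carry a factor that differs between the groups, and how the divisor was set is not known. Scaled instead to the recovered totals, the median log2 fold change of all genes was -0.16, and Lum stood at 0.77, Bgn at 0.38, Prelp at 0.20 and Dcn at 0.15, with Lum, Bgn and Dcn called and Prelp not (limma adjusted p = 0.0754). In that setting 3.67% of all genes were called higher and 29.2% lower. Relative to the median of all genes, Lum lay at 0.93, Bgn at 0.53, Prelp at 0.36 and Dcn at 0.31, close to their values as deposited. That closeness follows from arithmetic, since the 2 scalings differ by 1 factor per library, and is no separate check of the rise. Quantile normalization lowered Bgn (0.031), Dcn (0.048), Lum (0.70), Prelp (0.18) and Fmod (0.18), and gave values close to those as deposited for Ogn (-0.30) and Aspn (-1.58).

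**Figure D2:**
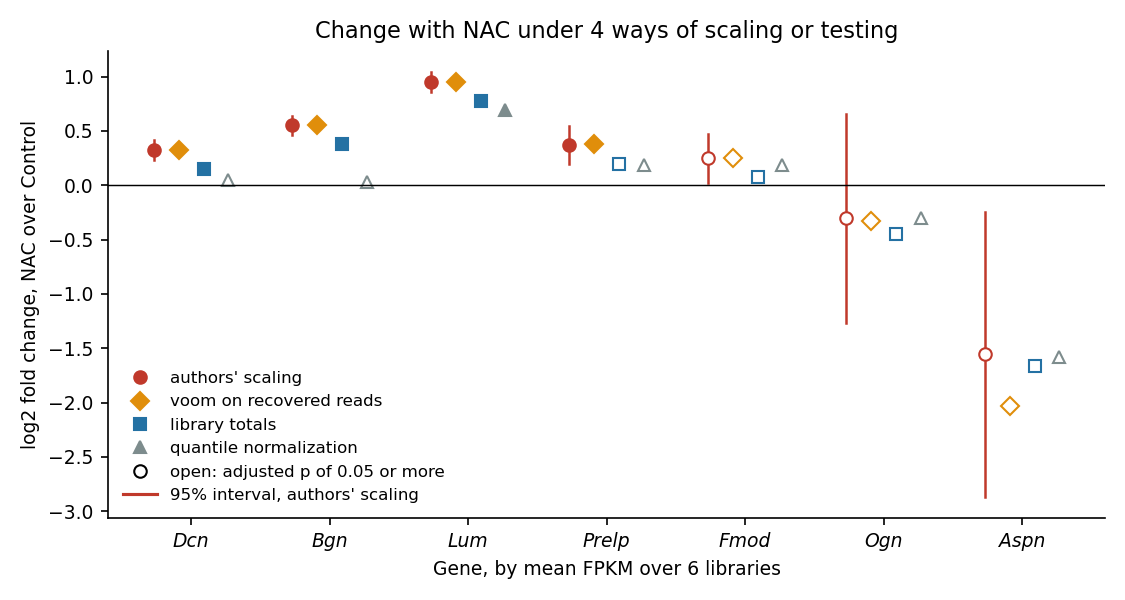
Log2 fold change of NAC over Control for the 7 proteoglycan genes that were tested. Circles stand for the authors' scaling (with the 95% interval) and diamonds for limma voom on recovered reads, which kept that scaling. Squares stand for library totals and triangles for quantile normalization. Filled symbols passed an adjusted p under 0.05. Lum is filled in all 4, whereas Dcn and Bgn fall to near 0 with quantile normalization.

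For the 4 genes that rose, the log2 estimates were 0.32 (Dcn), 0.37 (Prelp), 0.55 (Bgn) and 0.95 (Lum). Of these genes only Lum and Bgn were compared with Dcn, as ratios. Whether Prelp rose by another amount than Dcn was not tested, and its confidence interval (0.20 to 0.55) held the Dcn estimate. Mean shares in the summed family differed between the groups. Dcn made up 55.2 ± 0.394% of the summed FPKM of the 9 genes in NAC cells and 60.5 ± 0.436% in Control cells, Lum 14.7 ± 0.138% in NAC cells and 10.4 ± 0.216% in Control cells, and Bgn 25.1 ± 0.196% in NAC cells and 23.5 ± 0.227% in Control cells (SD, n = 3). Prelp held 4.03 ± 0.221% in NAC cells and 4.27 ± 0.301% in Control cells, and the other 5 genes together held the small rest. Ratios between genes of 1 library do not depend on scaling by 1 factor per library, although quantile normalization, which is no such scaling, alters them. The ratio of Lum to Dcn FPKM was 0.263, 0.271 and 0.265 in the NAC libraries, against 0.174, 0.168 and 0.175 in the Control libraries. Its log2 difference was 0.63, with no overlap between the groups (two-sided exact permutation test, p = 0.1, the smallest that 3 libraries against 3 allow). The ratio of Bgn to Dcn was 0.449, 0.461 and 0.453 in the NAC libraries, against 0.392, 0.390 and 0.383 in the Control libraries. That is a log2 difference of 0.23, again without overlap (exact permutation p = 0.1).

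**Figure D3:**
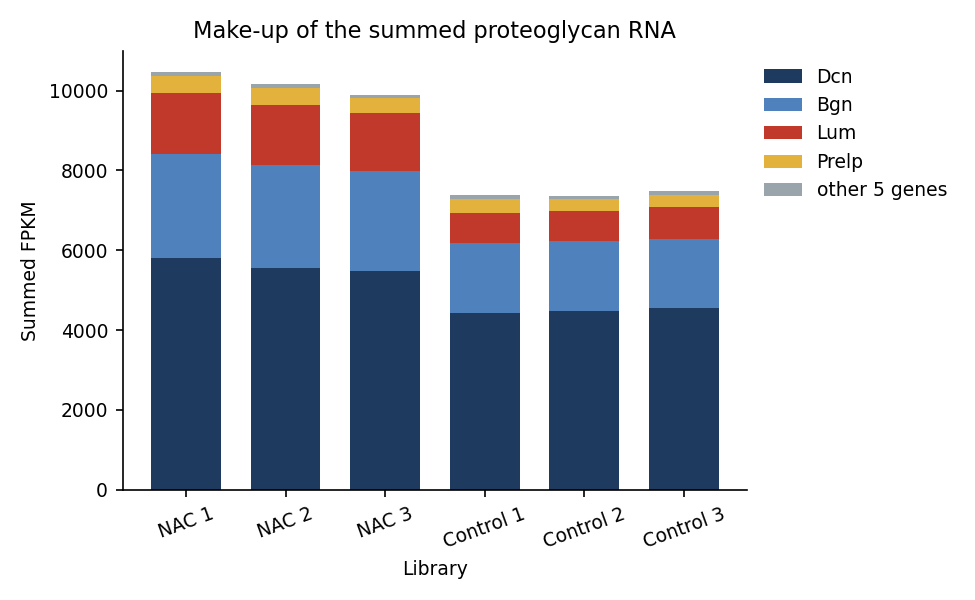
Summed FPKM of the 9 proteoglycan genes in each library, NAC on the left and Control on the right, split by gene. The sum is 9898 to 10477 FPKM in NAC libraries and 7370 to 7486 FPKM in Control libraries, and of the 3 thickest layers that of Lum differs most in proportion.

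Collagen I is the main fibril on which these proteoglycans sit, and its chain Col1a1 rose as well, to 5453 ± 253 FPKM in NAC cells, against 2731 ± 124 FPKM in Control cells (SD, n = 3). The ratio of Dcn to Col1a1 FPKM was 1.01, 1.03 and 1.05 in the NAC libraries and 1.59, 1.73 and 1.61 in the Control libraries. For Bgn to Col1a1 it was 0.455, 0.474 and 0.476 in the NAC libraries and 0.624, 0.676 and 0.619 in the Control libraries. Both ratios were lower in NAC cells without overlap, by log2 differences of -0.67 and -0.45 (exact permutation p = 0.1 each). The ratio of Lum to Col1a1 was 0.267, 0.279 and 0.278 in the NAC libraries and 0.277, 0.291 and 0.283 in the Control libraries. These overlapped, with a log2 difference of -0.047 (exact permutation p = 0.3). The other chain, Col1a2, read 854, 806 and 740 FPKM in the NAC libraries, against 691, 564 and 549 FPKM in the Control libraries, higher by 0.42 ± 0.0968 on the log2 scale (SE; limma adjusted p = 0.0458, and 0.0941 with library totals). The ratio of Dcn to Col1a2 was 6.80, 6.90 and 7.42 in the NAC libraries and 6.42, 7.95 and 8.27 in the Control libraries, and that of Bgn to Col1a2 was 3.05, 3.18 and 3.36 in the NAC libraries and 2.52, 3.10 and 3.17 in the Control libraries. Both overlapped, with log2 differences of -0.093 and 0.13 (exact permutation p = 0.5 and 0.4). A separation of the groups like that to Col1a1 was thus not seen for Col1a2. With 3 libraries against 3, a smaller lowering of the ratio of Dcn to Col1a2 cannot be told from none. The ratio of Lum to Col1a2 was 1.79, 1.87 and 1.96 in the NAC libraries and 1.12, 1.34 and 1.45 in the Control libraries, without overlap and with a log2 difference of 0.53 (exact permutation p = 0.1). The 6 ratios to collagen chains, and Col1a2 itself, were chosen after their values were seen. Over all 8 ratios tested, the Benjamini-Hochberg adjusted p was 0.16 for the 5 without overlap and 0.4 to 0.5 for the other 3.

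Aspn and Ogn, of low level, varied more between Control libraries than any other tested member. Aspn, which encodes asporin, which binds TGF-beta and inhibits its action in cartilage, read 1.54, 1.16 and 1.51 FPKM in the NAC libraries, against 1.76, 7.73 and 13.5 FPKM in the Control libraries. All NAC values lay below all Control values, but Control 1 was close to the NAC libraries, and the log2 fold change of -1.55 (95% interval -2.86 to -0.24) was not called (limma adjusted p = 0.134). It passed without Control 1 (-2.23; adjusted p = 0.00974). The second row named Aspn, at 15495801 to 15511972 on the same chromosome, read 0.893, 3.29 and 1.19 FPKM in the NAC libraries, against 4.79, 0.305 and 1.06 FPKM in the Control libraries. The row used held 56.1%, 20.7% and 48.3% of the reads of both rows in the NAC libraries, against 21.4%, 94.9% and 90.4% in the Control libraries. How the counting divided reads between rows of like name is not known, so either row alone is uncertain.

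Summed over both rows, a choice made after these values were seen, Aspn read 2.44, 4.44 and 2.70 FPKM in the NAC libraries, against 6.56, 8.03 and 14.6 FPKM in the Control libraries. Reads behind these sums numbered 57, 116 and 60 in the NAC libraries and 173, 158 and 334 in the Control libraries, and the groups did not overlap. With rows of like name summed throughout the table, Aspn was lower by a log2 fold change of -1.31 ± 0.292 (SE; adjusted p = 0.0409 with limma over 12666 genes, of which 6.15% were called higher and 2.77% lower). The adjusted p of Aspn ran from 0.00974 to 0.274 over its alternatives.

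Ogn, which encodes osteoglycin (mimecan), read 3.86, 4.83 and 6.53 FPKM in the NAC libraries, against 12.8, 5.78 and 3.29 FPKM in the Control libraries. Control 1 was the highest and Control 3 the lowest of all 6 libraries, so that the Control range enclosed the NAC range. The log2 difference was -0.30 (95% interval -1.27 to 0.66; limma adjusted p = 0.679) and turned to 0.15 without Control 1. Most Ogn reads fell in the row used, from 86.5% in Control 3 to 96.9% in Control 1. Summed over its 2 rows, Ogn read 5.09, 5.41 and 8.74 FPKM in the NAC libraries, against 13.99, 6.39 and 4.81 FPKM in the Control libraries. Although Aspn and Ogn are neighbours, the Control library with the most Ogn, Control 1, had the least summed Aspn among the Control libraries.

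**Figure D4:**
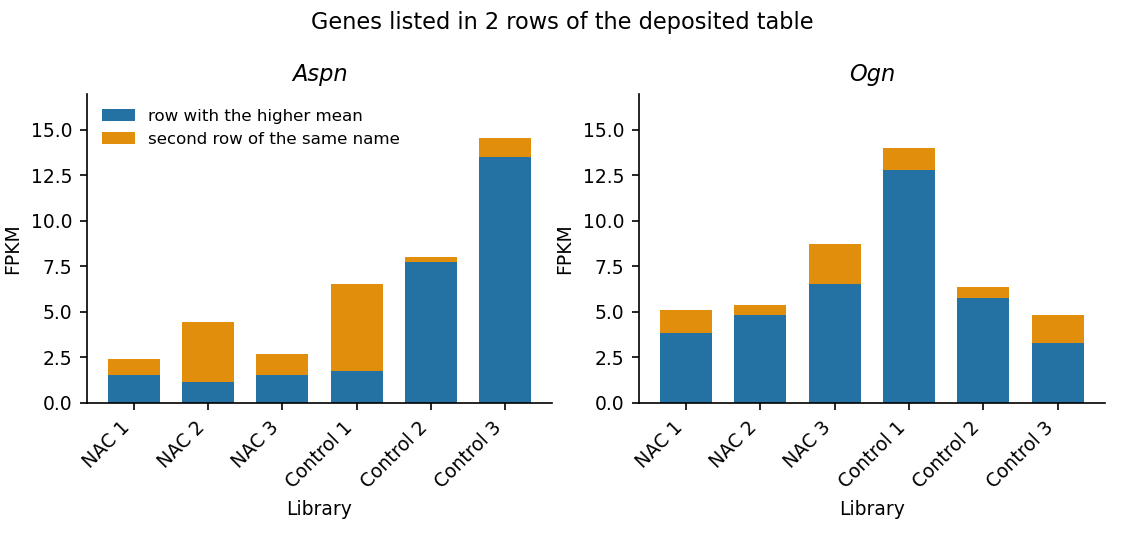
FPKM of Aspn and Ogn in each library, NAC on the left and Control on the right, with the row of higher mean at the base of each bar and the second row of the same name on top. The summed bars of Aspn are lower in all 3 NAC libraries than in any Control library, and those of Ogn overlap.

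Of 8 further leucine-rich repeat proteoglycans, 7 had a row, 3 were tested and none was called by limma. At an unadjusted p under 0.05, 0 were higher and 1 lower, beside 14.4% and 11.9% of all tested genes. By limma voom 0 were called higher and 1 lower, beside 8.13% and 4.15% of all genes. The 1 was Tsku (tsukushi, a secreted signalling modulator), at 31.8, 28.1 and 30.0 FPKM in the NAC libraries, against 33.6, 36.7 and 36.3 FPKM in the Control libraries. The groups did not overlap, the log2 difference was -0.24 (limma adjusted p = 0.0566), and over its alternatives the adjusted p ran from 0.00678 with library totals to 0.158. With library totals 29.2% of all genes were called lower. Podnl1 averaged 7.99 ± 0.353 FPKM in NAC cells and 7.55 ± 0.61 FPKM in Control cells, and Optc (opticin) 3.00 ± 0.736 FPKM in NAC cells and 3.64 ± 0.19 FPKM in Control cells (SD, n = 3). Chad and Nyx averaged under 1 FPKM in both groups, and Epyc and Chadl had values under 0.08 FPKM in every library.

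The fibrillar collagens that these proteins bind rose: 6 of 7 were tested and 6 were called higher, with a median log2 fold change of 0.53, against -0.0063 over all tested genes. Of all tested genes, 6.08% were called higher and 2.72% lower. Col1a1, Col5a1, Col11a1 and Col5a2 had the lowest adjusted p. Col5a1, a chain of the collagen that starts fibril assembly, averaged 317 ± 16.2 FPKM in NAC cells and 199.6 ± 5.54 FPKM in Control cells, Col5a2 809 ± 30.6 FPKM in NAC cells and 569.9 ± 48.3 FPKM in Control cells, and Col11a1 36.2 ± 1.49 FPKM in NAC cells and 24.2 ± 1.48 FPKM in Control cells (SD, n = 3). With library totals 4 of the 6 were called higher, where 3.67% of all genes were called higher and 29.2% lower. Without Control 2, 5 were called higher, where 6.75% of all genes were called higher and 2.73% lower.

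Among the enzymes that build the glycosaminoglycan chains, the calls by limma fell in chondroitin and dermatan sulfate synthesis. Of 16 genes of that synthesis, 13 were tested, of which 2 rose and 1 fell. Of all tested genes, 6.08% were called higher and 2.72% lower. At an unadjusted p under 0.05, limma gave 6 of the 13 higher and 1 lower, beside 14.4% and 11.9% of all tested genes. The 13 had a median log2 fold change of 0.12 as deposited and, relative to the median of all genes, 0.11 with library totals. Chst12, a chondroitin 4-O-sulfotransferase, read 63.5, 66.4 and 68.0 FPKM in the NAC libraries, against 49.99, 53.4 and 50.5 FPKM in the Control libraries. The groups did not overlap, and its log2 fold change was 0.36 ± 0.0446 (SE; limma adjusted p = 0.00662). Chst15, which adds a further sulfate to chondroitin sulfate, averaged 7.93 ± 0.464 FPKM in NAC cells and 6.07 ± 0.468 FPKM in Control cells. Its call was lost without NAC 1, NAC 2, NAC 3, Control 1 or Control 3 (0.30 to 0.37). It was also lost with library totals (0.18), the replicate block, no trend or no filter. Chpf, a subunit of the chondroitin polymerase, fell to 95.9 ± 1.91 FPKM in NAC cells, against 112 ± 2.44 FPKM in Control cells, and lost its call without NAC 1, NAC 2, Control 1 or Control 3 (-0.22 to -0.21).

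None of the 7 tested genes of the linker that joins chains to core proteins was called by limma (2 higher and 0 lower at an unadjusted p under 0.05, beside 14.4% and 11.9% of all tested genes, 0 by limma voom), with B3gat3 at 45.9 ± 3.39 FPKM in NAC cells and 51.5 ± 3.63 FPKM in Control cells and B4galt7 at 26.1 ± 1.03 FPKM in NAC cells and 25.7 ± 1.58 FPKM in Control cells. For keratan sulfate synthesis, 7 of 10 genes were tested and limma called none (4 higher and 0 lower at an unadjusted p under 0.05, which 14.4% and 11.9% of all tested genes passed). Limma voom called 1 higher, beside 8.13% of all genes. B4galt1 averaged 54.7 ± 1.36 FPKM in NAC cells and 50.9 ± 0.824 FPKM in Control cells, and St3gal1 32.7 ± 0.34 FPKM in NAC cells and 29.8 ± 1.68 FPKM in Control cells. For sulfate uptake, the sulfate donor and UDP-sugars, all 13 genes were tested and limma called none, nor did limma voom. At an unadjusted p under 0.05 there were 1 higher and 1 lower, beside 14.4% and 11.9% of all tested genes. Ugdh, which makes UDP-glucuronic acid, averaged 109.6 ± 0.518 FPKM in NAC cells and 118 ± 3.44 FPKM in Control cells. Slc35b2, a Golgi transporter of the sulfate donor, averaged 41.4 ± 0.638 FPKM in NAC cells and 41.0 ± 3.17 FPKM in Control cells. The medians of these 3 lists were 0.10, 0.13 and 0.093 (log2) as deposited, and relative to the median of all genes they were 0.093, 0.12 and 0.088 with library totals.

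Among 16 receptors and growth factors that decorin, biglycan or lumican bind, 13 were tested, and limma called 1 higher and 0 lower. At an unadjusted p under 0.05 there were 2 higher and 3 lower, beside 14.4% and 11.9% of all tested genes. Limma voom called 2 higher and 2 lower, beside 8.13% and 4.15% of all genes. Without Control 2, 2 were called lower, beside 2.73% of all genes, and with library totals 5, beside 29.2%. The gene called higher by limma was Lrp1, an endocytic receptor that takes up decorin. It read 723, 726 and 673 FPKM in the NAC libraries, against 514, 503 and 543 FPKM in the Control libraries. The groups did not overlap, and Lrp1 was higher by 0.44 ± 0.0472 on the log2 scale (SE; limma adjusted p = 0.00365). Its call ended with quantile normalization alone among the alternatives run (0.23; adjusted p = 0.0572, range 0.000173 to 0.0572). The list's median was -0.027, beside -0.0063 for all tested genes.

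Of 11 genes of propeptide cleavage and extracellular proteolysis, 9 were tested, 5 rose and 1 fell, beside 6.08% and 2.72% of all tested genes. With library totals 3 were called higher and 3 lower, beside 3.67% and 29.2% of all genes. Quantile normalization gave 2 higher and 2 lower, beside 4.47% and 3.2%. The 9 had a median log2 fold change of 0.21 as deposited, 0.036 with library totals (0.19 relative to the median of all genes) and -0.038 with quantile normalization. Tll1, a tolloid-like protease related to the one that cleaves pro-biglycan, fell to 9.72 ± 0.606 FPKM in NAC cells, against 15.0 ± 0.643 FPKM in Control cells (SD, n = 3; limma adjusted p = 0.00365). Pcolce, an enhancer of procollagen cleavage, rose to 1206 ± 46.5 FPKM in NAC cells, against 931 ± 40.3 FPKM in Control cells, and its call ended with quantile normalization (0.096). Bmp1, which encodes the protease that removes the biglycan propeptide, averaged 47.2 ± 0.869 FPKM in NAC cells and 40.3 ± 2.49 FPKM in Control cells. Its call (limma adjusted p = 0.0448) was lost on removal of each of the 6 libraries in turn (0.18 to 0.27). It was also lost with library totals (0.056), quantile normalization (0.20), the replicate block, no trend or no filter.

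Mmp9, a gelatinase, averaged 46.4 ± 6.81 FPKM in NAC cells and 24.1 ± 5.99 FPKM in Control cells. It lost its call without NAC 1, NAC 2, NAC 3 or Control 3 (0.83 to 1.05), and with a robust fit, no trend or no filter. Mmp2, a second gelatinase, averaged 2925 ± 38.8 FPKM in NAC cells and 2530 ± 92.8 FPKM in Control cells. Its call was lost without NAC 1, NAC 2, NAC 3, Control 1 or Control 3 (0.19 to 0.22). It was also lost with library totals (0.036), quantile normalization (-0.038), the replicate block, no trend or no filter. Adamts4, an aggrecanase, averaged 9.40 ± 0.745 FPKM in NAC cells and 6.25 ± 1.05 FPKM in Control cells. Its call was lost without NAC 1, NAC 2, NAC 3, Control 1 or Control 3 (0.44 to 0.56), and with no trend or no filter. Bmp1 and Adamts4 were chosen after their values were seen. The large aggregating proteoglycans Vcan and Acan were tested and not called (limma; 0 at an unadjusted p under 0.05 and 0 by limma voom), with Vcan at 66.8 ± 2.66 FPKM in NAC cells and 68.9 ± 6.01 FPKM in Control cells and Acan at 1.89 ± 0.117 FPKM in NAC cells and 2.30 ± 0.506 FPKM in Control cells.

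**Figure D5:**
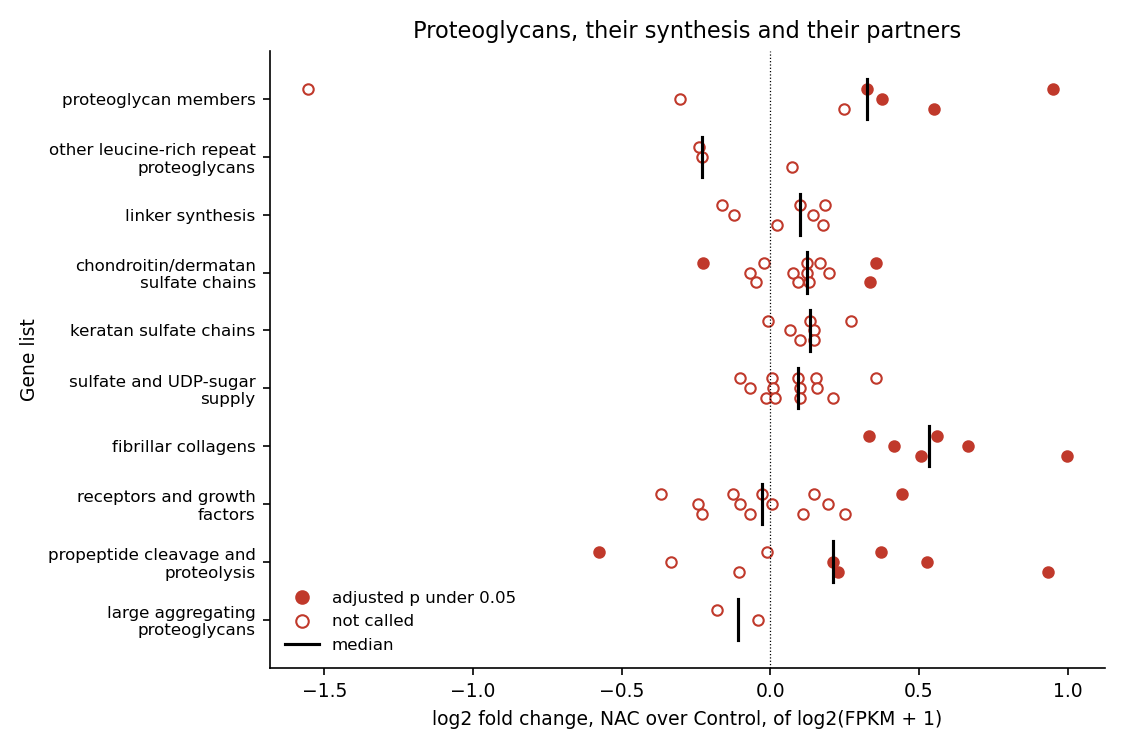
Log2 fold change of NAC over Control for every tested gene of the 10 lists, with filled circles for an adjusted p under 0.05, open circles for genes not called, and a line at each list's median. The fibrillar collagens are all filled and to the right of 0, whereas the lists of chain synthesis sit close to 0, with 2 filled genes to the right and 1 to the left.

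The genes most like the 3 leading members in their pattern over the 6 libraries were found among 10942 named genes by Pearson's r of log2(FPKM + 1), given as a description only, since the 2 groups set most of it. For Dcn these were Col5a1 (r = 0.998) and Ptgfrn (0.996), a membrane protein that associates with the prostaglandin F receptor. For Bgn they were Serpinf1 (0.999), the secreted factor PEDF, and Htra1 (0.999), a secreted serine protease. For Lum they were Col6a3 (r = 1.00), a chain of the microfibrillar collagen VI, and Mt-co2 (r = 1.00), the mitochondrially encoded subunit of cytochrome c oxidase. Htra1 read 677, 683 and 667 FPKM in the NAC libraries, against 437, 443 and 445 FPKM in the Control libraries. Col6a3 read 46.8, 45.1 and 44.2 FPKM in the NAC libraries, against 17.5, 17.4 and 18.8 FPKM in the Control libraries.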

How the data were processed

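RNA was sequenced from 3 NAC and 3 Control samples of rat tendon stem/progenitor cells; per the labels' protocols, RNA came from an RNeasy kit and a SMARTer mRNA-Seq kit made the libraries. All values are FPKM, deposited by the authors in 1 table. No source used here names the aligner, counting, strand setting or annotation, and sense and antisense reads cannot be told apart. The builds GRCm38 and mm10 (mouse) are named per the submitters' processing notes, whereas the identifiers are rat. Columns headed N were taken as Control by elimination, with the number of the title. FPKM times the deposited gene length gave whole reads for 100% of values (tolerance 0.01), and counts of reads and the floor of 3 reads cover counting error only. No pair of libraries within a group was a duplicate (chi-square of 3.46 to 8.71 per degree of freedom, above the sampling noise).

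Genes averaging 1 FPKM or more were tested as log2(FPKM + 1) with limma 3.58.1 in R 4.3.3 (lmFit, eBayes with trend, group as the only term, two-sided), Benjamini-Hochberg adjusted over all 12733. Fold changes refer to this scale, on which low genes change less than in FPKM; ratios used scipy 1.17.1. Same-numbered libraries did not deviate together (correlations -0.0502 to 0.0627), so numbers were not treated as pairs. Alternatives changed the pseudocount, filter, scaling, eBayes settings, block, library set or test; the summing of rows of like name and the ratios to Col1a1 and Col1a2 were chosen after seeing the data. Simulated data served to check the test. Named genes were all members, the further leucine-rich repeat proteoglycans, up to 4 called genes of each list by adjusted p (or the 2 most abundant where none was called), and the 2 genes most like each of the 3 most abundant members. Members and lists were chosen with earlier results of these data known. Of the list entries, Bpnt2 was found as Impad1 through the RefSeq gene table (GRCr8). The promoter windows are of the same build, and the other gene coordinates are the deposited ones. Podn and Ecm2 were not analysed here.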

Additional observations from a re-analysis of the deposited data

How the results depend on the processing

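Of 10 proteoglycan genes, 4 were called higher and 0 lower. The count of higher genes was 3 to 4 with any 1 library left out, 2 without a filter on low values and 1 with quantile normalization, and 3 or 4 in the other settings, among them the replicate block (4, so pairing changed no call of a member). The block ended the calls of Chst15, Mmp2 and Bmp1. The count of lower genes was 0 to 1 over the leave-outs (Aspn, without Control 1) and 1 with rows of like name summed (Aspn). The ratios of Lum to Dcn and Bgn to Dcn kept their direction in all 7 alternatives each (log2 differences of 0.61 to 0.64 and 0.22 to 0.24). Over 43 named genes, 632 values under alternatives gave 550 with the same direction and call, 60 with a call lost, 9 with a call gained and 13 with a changed sign. With library totals the sign changed for Podnl1 (-0.080), B4galt7 (-0.14), B4galt1 (-0.071), St3gal1 (-0.037) and Slc35b2 (-0.15). That scaling moves the median of all genes to -0.16, and relative to it these 5 stood at 0.0038 to 0.12, above 0. The sign also changed with quantile normalization for Slc35b2 (-0.018) and Mmp2 (-0.038). Over the leave-outs Ogn ran from -0.69 to 0.15, B4galt7 from -0.025 to 0.058, Slc35b2 from -0.022 to 0.077 and Vcan from -0.084 to 0.029. Without a filter, Dcn changed in unadjusted p as well (0.0183, beside 0.000103), not only through adjustment over 19944 genes. The cause of the changes other than those with library totals was not tested. Depth limits Kera, Omd, Epyc and Chadl, which had few or no reads.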
